A study of Mus musculus with 4 samples.

Results

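Lysosomes are the acidic compartments in which cells digest proteins, lipids and sugar chains, and autophagy is the route by which a cell's own contents are wrapped in a membrane and delivered to them. The genes described here are 35 genes of that system. They comprise soluble hydrolases and their helpers, lysosomal membrane proteins, the transcription factor gene Tfeb, autophagy genes and Gpnmb. They were chosen by gene symbol from a list made for this work, with earlier results of these data known. Each was read from its brightest probe set among those that the platform annotation ties to 1 gene. All 35 had such a probe set, out of 19938 genes with one.

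Mouse embryonic fibroblasts (MEFs), cells of connective tissue cultured from embryos, were read on 4 Affymetrix Mouse Gene 1.0 ST arrays. The groups were NFAT5 knockout-labelled cells in hypertonic medium, knockout-labelled cells in isotonic medium, wild-type cells in hypertonic medium and wild-type cells in isotonic medium. NFAT5, also named TonEBP in the labels, is a transcription factor that turns on genes for organic osmolytes when the surroundings of a cell become hypertonic. All cells were unsynchronised and spent 20 hours in their medium, and the hypertonic medium was brought to 450 mosmol/kg with NaCl; no source used here states the osmolality of the isotonic medium. Not stated in the labels are which part of Nfat5 was deleted, the mouse strain, or whether the cells were 1 line or several. Each array held RNA pooled from 4 samples of its group, so there was 1 array per group, no spread between replicates, and no test. Every value below describes these 4 pools.

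Hydrolases are made in the secretory pathway, sorted to the lysosome and switched on there by acid, which a proton pump of many subunits, the V-ATPase, provides. TFEB and its relatives MITF, TFE3 and TFEC bind short E-box-like sequences, often in promoters of lysosomal and autophagy genes, and raise their transcription when they enter the nucleus. Their activity is set largely by phosphorylation and location, so the RNA level of Tfeb does not report it.

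The arrays were similar as a whole, with correlations across probe sets between 0.979 and 0.989, the lowest being those of the knockout-labelled hypertonic array with the wild-type arrays. The Nfat5 signal, on the log2 scale as all signals here, was 8.24 in hypertonic and 8.03 in isotonic knockout-labelled cells, against 8.19 and 7.74 in hypertonic and isotonic wild-type cells. It was thus not lower in the cells labelled as knockout, and the probe set does not check the label if it lies outside the deleted part. A signal was called dim when it lay below its array's median over one-gene probe sets, a limit of 5.38 to 5.44. By that limit 9 of 11 fibroblast markers were above it on each array, and Dcn and Lum were dim on all. Macrophage markers were nearly all dim, with at most 1 of 11 above the limit on any array (Cd68), and none of 6 melanocyte or 5 endothelial markers was above it. Of osteoclast markers 2 of 7 were above it on both knockout-labelled arrays and 1 on both wild-type arrays, and of epithelial markers 2 or 3 of 5. The summed linear signal of the epithelial markers was 281.5 and 191.4 in hypertonic and isotonic knockout-labelled cells, against 240.8 and 232.1 in wild-type cells. Among them Krt18 read 6.94 and 6.03 in knockout-labelled cells, against 6.23 and 6.21 in wild-type cells, so it was highest on the knockout-labelled hypertonic array. Krt8 and Cldn4 were also highest there but nearer the dim limit, and Epcam was dim on all arrays. Cdh1 went the other way, at 5.21 and 5.17, both dim, against 6.04 and 5.88 in wild-type cells. The part of these markers in the results was not tested.

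Of the 35 genes, most read a little higher on the knockout-labelled hypertonic array than on the others. The other genes of the system, given at the end, had pooled medians near 0 in the knockout-labelled response and in the hypertonic genotype difference. Their lists differed from each other. Between genotypes in hypertonic medium the list medians ran from -0.54 for further hydrolases to 0.55 for other V-ATPase subunits. A gene counted as measured if at least 1 of the arrays compared put it above the dim limit, which held for 34 of the 35 in every comparison and left out only Ctsk. Of those 34, 24 (70.6%) had their highest signal on the knockout-labelled hypertonic array, against 27.6% of 10542 measured genes. Their lowest signal fell on the wild-type isotonic array for 16 (47.1%), against 18.2% of those genes. After quantile normalization these counts were 25 and 15, against 35.8% and 20.4% of all genes, and after cyclic loess 25 and 15, against 32.0% and 20.6%. Naglu, Gaa, Asah1, Scarb2, Npc1, Tfeb, Gabarapl1 and Wipi1, 8 of 34 (23.5%), were lowest on the knockout-labelled hypertonic array, against 37.8% of all genes. Because the list was made with earlier results of these data known, these contrasts with all genes describe it and test nothing.

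**Figure D1:**
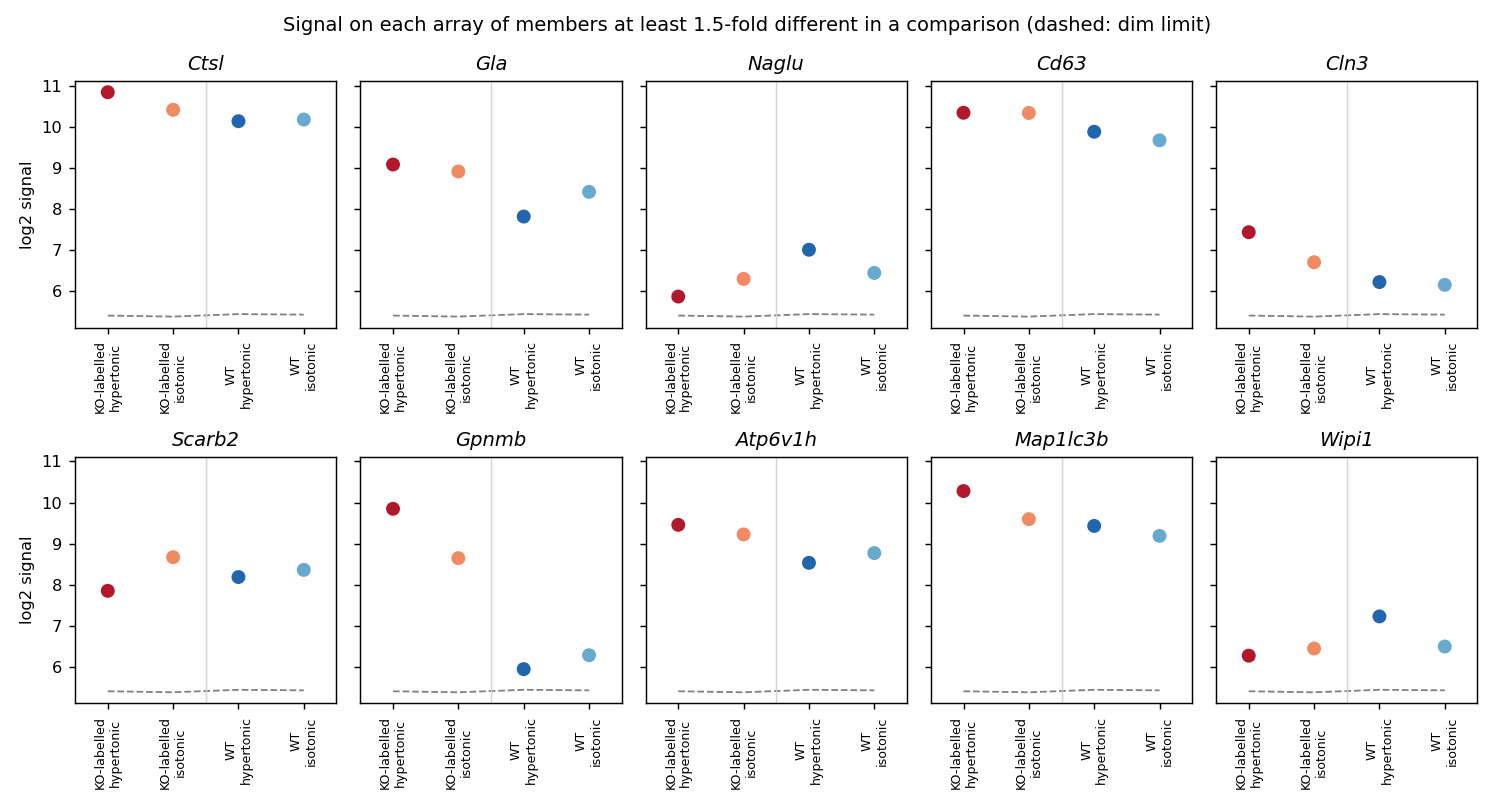
Log2 signal on each of the 4 arrays, 1 panel for each of the 10 genes at least 1.5-fold different in a comparison between arrays; 1 point per array, knockout-labelled left of wild-type, and the dashed line is the dim limit. Gpnmb has the widest gap, at 9.85 and 8.65 on the knockout-labelled arrays, against 5.94 and 6.28 on the wild-type arrays, and all points lie above the dashed line.

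The first comparison is the hypertonic response of knockout-labelled cells, hypertonic minus isotonic. Here 3 of the 34 genes were at least 1.5-fold higher (Gpnmb, Cln3 and Map1lc3b), with 4.28% of all measured genes that much higher. Scarb2 was the only one at least 1.5-fold lower, with 12.0% of all measured genes that much lower. The median difference of the 34 was 0.18, against -0.09 over all 10277 measured genes. Of the 34, 24 were above 0, as were 39.9% of all genes. The share of all genes called higher depends on scaling, at 440 higher and 1237 lower as deposited, and 664 higher and 856 lower after quantile normalization, which moves the all-gene median by about 0.1. The members' median stayed between 0.18 and 0.27 under every alternative.

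In wild-type cells the hypertonic response was small in these genes. Wipi1 alone was at least 1.5-fold higher, with 4.12% of all measured genes that much higher, and Gla alone was at least 1.5-fold lower, with 3.3% that much lower. With quantile, cyclic loess or median-centred values the split was 2 higher (Wipi1 and Naglu) and none lower, since Gla then lay just inside the limit. The median was 0.10, against -0.02 over all 10134 measured genes, and 24 of 34 were above 0, as were 46.0% of all genes. In 17 of 34 genes both responses were above 0, against 18.9% of all genes, and in 3 (Scarb2, Npc1 and Gabarapl1) both were below 0, against 32.6%.

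Between genotypes in isotonic medium, Gpnmb and Cd63 were at least 1.5-fold higher in knockout-labelled cells, 2 of 34, with 4.92% of all measured genes that much higher. None was at least 1.5-fold lower, with 3.87% of all measured genes that much lower. The median was 0.13, against 0.03 over all genes. In hypertonic medium 6 of 34 were at least 1.5-fold higher in knockout-labelled cells, with 8.72% of all measured genes that much higher: Ctsl, Gla, Cln3, Gpnmb, Atp6v1h and Map1lc3b. Naglu and Wipi1 were at least 1.5-fold lower, 2 of 34, with 15.1% of all measured genes that much lower. The median was 0.24, against -0.01 over all 10374 measured genes.

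When the wild-type response was subtracted from the knockout-labelled one, 3 genes were at least 1.5-fold higher (Gla, Cln3 and Gpnmb), with 7.76% of all genes, and 3 were at least 1.5-fold lower (Naglu, Scarb2 and Wipi1), with 15.4%. The median was 0.15, against -0.06 over all genes. The 5 comparisons draw on the same 4 arrays and are not independent of each other. At a limit of 2-fold, 1 gene, Gpnmb, was higher and none was lower in the knockout-labelled response, with 0.379% and 3.08% of all measured genes that much higher and lower. In the wild-type response none was higher or lower, with 1.01% and 0.414% of all genes. Between genotypes in isotonic medium 1, again Gpnmb, was higher and none lower, with 1.59% and 1.28% of all genes. In hypertonic medium 3 (Gla, Cln3 and Gpnmb) were higher and 1 (Naglu) lower, with 2.57% and 6.43% of all genes. For the difference of responses 1 (Gpnmb) was higher and none lower, with 1.41% and 5.53%. A gauge of error within an array is the gap between probe sets of the same gene. Over genes with 2 probe sets, the SD of a log2 difference attributable to the probe set was 0.186 in the knockout-labelled response, 0.15 in the wild-type response, 0.186 and 0.207 between genotypes in isotonic and hypertonic medium, and 0.234 for the difference of responses. It says nothing of the spread between cultures.

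**Figure D2:**
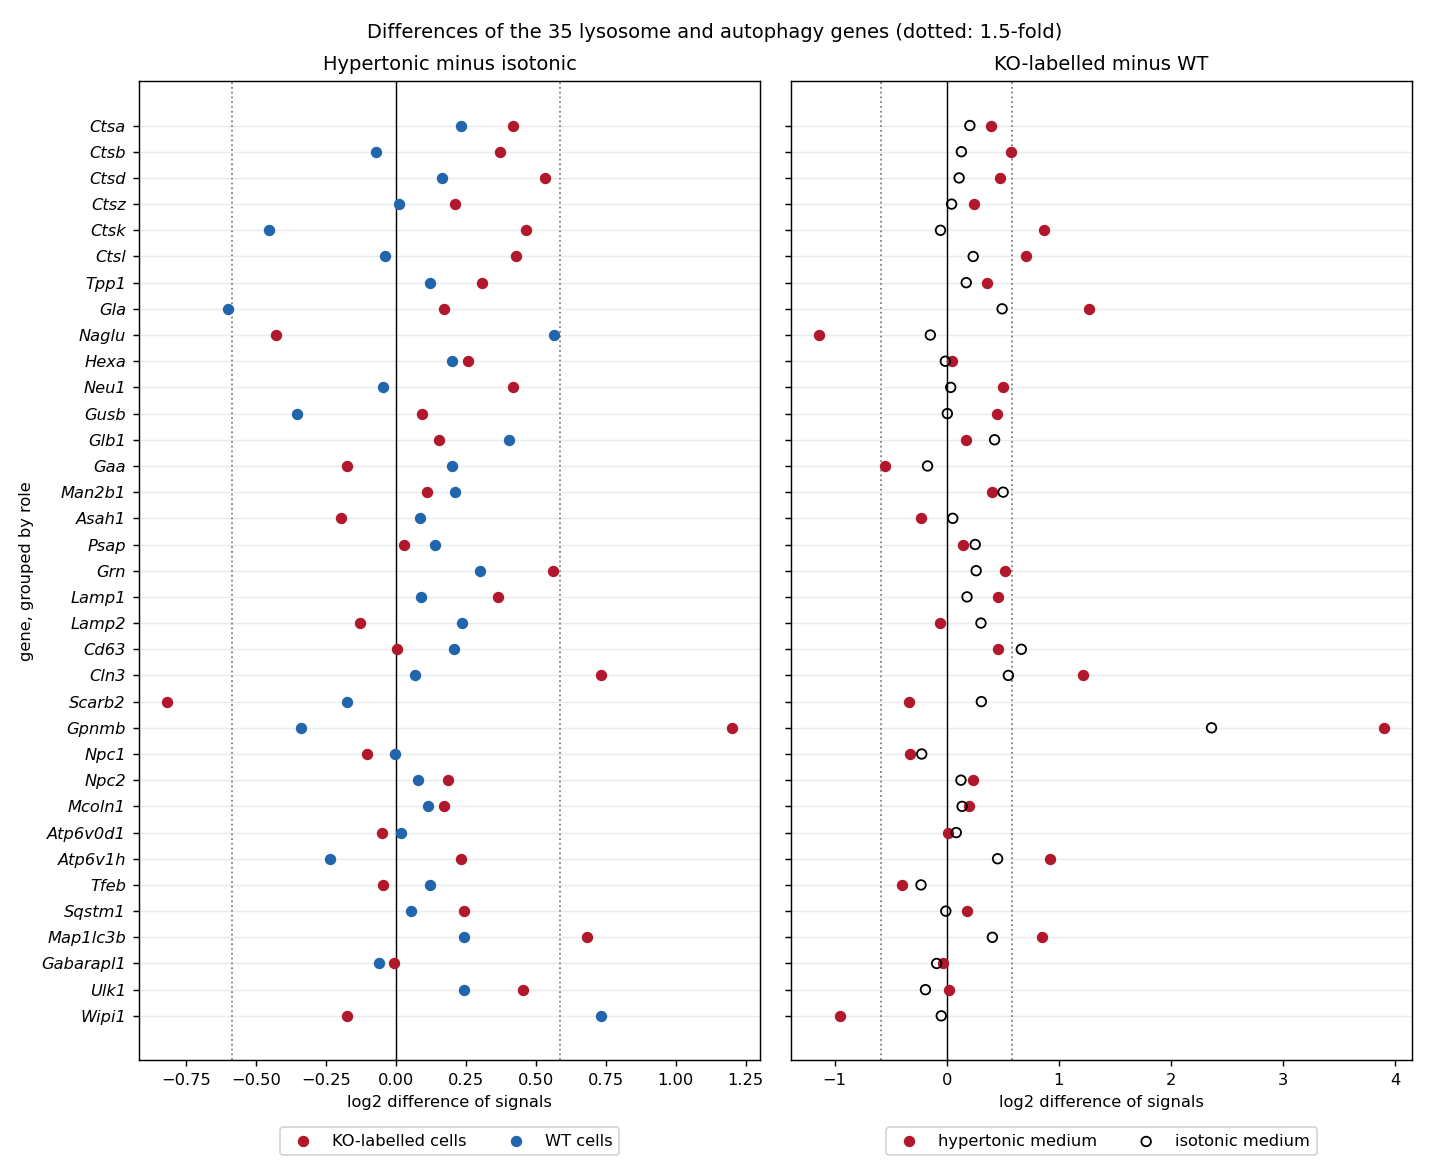
Log2 differences of the 35 genes, 1 row per gene, with the response to hypertonic medium on the left (red, knockout-labelled; blue, wild-type) and the genotype difference on the right (filled, hypertonic; open, isotonic); dotted lines mark 1.5-fold. Most points lie inside the dotted lines, and Gpnmb stands farthest right in both panels.

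Cathepsins and other proteases cut proteins inside the lysosome. In the knockout-labelled response the 6 measured had differences above 0, as had 39.9% of all genes, from 0.21 to 0.53 with a median of 0.40. Of the 7 other measured lysosomal proteases, 5 were above 0 and 2 below. In wild-type cells the same 6 lay between -0.07 and 0.23. None was at least 1.5-fold higher or lower in either response as deposited.

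Ctsl, cathepsin L, a cysteine protease, had the largest hypertonic genotype difference of these 6. Its signal was 10.84 in hypertonic and 10.41 in isotonic knockout-labelled cells, against 10.14 and 10.18 in hypertonic and isotonic wild-type cells. Both knockout-labelled arrays were above both wild-type arrays. The difference in hypertonic medium was 0.70, or 1.63-fold, and that in isotonic medium 0.24.

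Ctsd, cathepsin D, an aspartic protease, had a signal of 12.06 in hypertonic and 11.53 in isotonic knockout-labelled cells, against 11.58 and 11.41 in hypertonic and isotonic wild-type cells. Its response was 0.53 in knockout-labelled and 0.17 in wild-type cells, and the knockout-labelled one passed 1.5-fold with cyclic loess or centred values. Ctsb, cathepsin B, another cysteine protease, reached 0.58 between genotypes in hypertonic medium, just under the 1.5-fold limit, and was called higher after quantile normalization.

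For Ctsa, Ctsz and Tpp1, a carboxypeptidase that also guards other hydrolases, a further carboxypeptidase and a tripeptidyl peptidase, the knockout-labelled responses lay between 0.21 and 0.42. Ctsk, the collagen-degrading cathepsin of osteoclasts, had a signal of 5.08 and 4.61 in hypertonic and isotonic knockout-labelled cells, against 4.21 and 4.67 in wild-type cells. All 4 of its values were dim, so no difference is read from it.

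The glycosidases and lipid hydrolases, which strip sugars and lipids, did not share a direction. Of 9 measured, 6 were above 0 in the knockout-labelled response, 6 in the wild-type response and 6 between genotypes in hypertonic medium. The median was 0.18 in the last. Of all genes, 39.9%, 46.0% and 49.4% were above 0 in those comparisons, in that order. The isotonic genotype median was 0.04 and changed sign with scaling, to -0.001 at the lowest.

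Gla, alpha-galactosidase A, which removes galactose from glycolipids and is deficient in Fabry disease, had a signal of 9.08 in hypertonic and 8.91 in isotonic knockout-labelled cells, against 7.82 and 8.42 in hypertonic and isotonic wild-type cells. The lowest of the 4 was the wild-type hypertonic array. The knockout-labelled response was 0.17 and the wild-type response -0.60. In hypertonic medium the genotype difference was 1.27, or 2.40-fold, the rank from the highest being 134 of 10374 genes.

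Naglu, an enzyme that breaks down heparan sulfate, was opposite to Gla. Its signal was 5.87 in hypertonic and 6.30 in isotonic knockout-labelled cells, against 7.01 and 6.44 in hypertonic and isotonic wild-type cells. The knockout-labelled response was -0.43 and the wild-type response 0.57, and the genotype difference in hypertonic medium was -1.14. The knockout-labelled hypertonic signal lies close to the dim limit, where a log2 difference is less certain.

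Man2b1, lysosomal alpha-mannosidase, had a signal of 8.78 in hypertonic and 8.67 in isotonic knockout-labelled cells, against 8.38 and 8.17 in hypertonic and isotonic wild-type cells. Its genotype difference was 0.50 in isotonic and 0.40 in hypertonic medium. Gaa, which digests glycogen, was lower in knockout-labelled cells by a difference of -0.55 in hypertonic medium, short of 1.5-fold. The remaining glycosidase and lipid hydrolase genes, Hexa, Neu1, Gusb, Glb1 and Asah1, were below 1.5-fold in every comparison between arrays.

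Psap and Grn encode secreted precursors that serve lysosomal enzymes, saposins for sphingolipid hydrolases and progranulin. Grn had a signal of 11.73 in hypertonic and 11.17 in isotonic knockout-labelled cells, against 11.21 and 10.91 in hypertonic and isotonic wild-type cells. Its response was 0.56 in knockout-labelled and 0.30 in wild-type cells, both under 1.5-fold as deposited. The knockout-labelled response of Grn passed that limit with quantile, cyclic loess or centred values. Psap differed by at most 0.25 in any comparison between arrays.

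Among the membrane proteins Gpnmb stood out. It is a transmembrane glycoprotein of lysosomes and melanosomes, best known from macrophages, osteoclasts and melanocytes. Its signal was 9.85 in hypertonic and 8.65 in isotonic knockout-labelled cells, against 5.94 and 6.28 in hypertonic and isotonic wild-type cells. The 2 knockout-labelled arrays lie far above the 2 wild-type arrays.

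For Gpnmb the genotype difference was 2.36 in isotonic medium, or 5.14-fold, and 3.90 in hypertonic medium, or 15-fold. The wild-type signals lie not far above the dim limits of 5.44 and 5.43, so the sizes of these folds are less certain. From the highest, they ranked 12 of 10191 and 3 of 10374 measured genes. The knockout-labelled response was 1.20, or 2.30-fold, ranking 16 of 10277, and the wild-type response was -0.34. The summed linear signal of the 11 macrophage markers, all dim on every array but Cd68, was 190.1 and 194.2 on the hypertonic and isotonic knockout-labelled arrays, against 202.1 and 189.9 on the wild-type ones. That sum of the 6 melanocyte markers was 98.8 and 97.2, against 102.9 and 95.9, and that of the 7 osteoclast markers 188.0 and 169.3, against 219.6 and 157.3. Within the osteoclast list Acp5 was higher in knockout-labelled cells, as Gpnmb was, at 5.79 and 5.81 in hypertonic and isotonic medium, against 5.0 and 4.8 in wild-type cells. Itgb3, above the dim limit on all arrays, read 5.88 and 5.66 in knockout-labelled cells, against 6.86 and 5.82 in wild-type cells. The 11 fibroblast markers summed to 12727 and 17421 in hypertonic and isotonic knockout-labelled cells, against 22689 and 20631 in wild-type cells. Such a sum rests on its brightest genes, which did not move alike. In hypertonic medium Col1a1 read 10.93 in knockout-labelled and 12.57 in wild-type cells, and Col1a2 10.68 and 12.10. Vim read 12.50 and 12.57 there, and Fn1 11.32 and 11.09. Col3a1, Pdgfra, Pdgfrb, Thy1 and S100a4 were, like Col1a1 and Col1a2, at least 1.5-fold lower in knockout-labelled cells there. Of these S100a4 was lower by the most, at 7.32 in knockout-labelled and 11.13 in wild-type cells. Dcn and Lum were dim. In pools like these, fewer cells of a type and less RNA per cell cannot be told apart, and the part of these markers in the result was not tested.

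Cln3, a membrane protein lost in juvenile neuronal ceroid lipofuscinosis, had a signal of 7.43 in hypertonic and 6.70 in isotonic knockout-labelled cells, against 6.22 and 6.15 in hypertonic and isotonic wild-type cells. The knockout-labelled response was 0.73, or 1.66-fold, and the wild-type response 0.07. Between genotypes the difference was 1.21 in hypertonic and 0.55 in isotonic medium. The wild-type signals lie not far above the dim limit, so the sizes of these differences are less certain. Both knockout-labelled arrays were above both wild-type arrays.

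Scarb2, the receptor that carries glucocerebrosidase to the lysosome, had a signal of 7.85 in hypertonic and 8.67 in isotonic knockout-labelled cells, against 8.19 and 8.36 in hypertonic and isotonic wild-type cells. Its knockout-labelled response was the lowest of the 35, at -0.82, or 1.76-fold lower. In wild-type cells the response was -0.17, and the difference of responses, -0.64, did not reach 1.5-fold with quantile normalization.

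Cd63, a tetraspanin of late endosomes, had a signal of 10.34 in hypertonic and 10.34 in isotonic knockout-labelled cells, against 9.88 and 9.67 in hypertonic and isotonic wild-type cells. It was higher in knockout-labelled cells by 0.67 in isotonic and 0.46 in hypertonic medium, and nearly the same in both media within knockout-labelled cells. Lamp1 and Lamp2, the abundant coat glycoproteins of the lysosomal membrane, were under 1.5-fold throughout. Lamp1 read 12.13 in hypertonic and 11.77 in isotonic knockout-labelled cells, against 11.67 and 11.58 in hypertonic and isotonic wild-type cells.

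Of the cholesterol export pair, Npc1 and Npc2, neither reached 1.5-fold. The proton pump subunit Atp6v1h, part of the cytosolic V1 sector, had a signal of 9.46 in hypertonic and 9.22 in isotonic knockout-labelled cells, against 8.53 and 8.77 in hypertonic and isotonic wild-type cells. The genotype difference was 0.92 in hypertonic and 0.45 in isotonic medium. Atp6v0d1, from the membrane sector, and Mcoln1, the calcium channel TRPML1, differed by 0.20 or less in all comparisons between arrays.

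Tfeb itself had a signal of 6.05 in hypertonic and 6.10 in isotonic knockout-labelled cells, against 6.45 and 6.33 in hypertonic and isotonic wild-type cells. All 4 differences were small: -0.05 and 0.12 in the knockout-labelled and wild-type responses, -0.23 and -0.40 between genotypes in isotonic and hypertonic medium. The first changed sign with scaling, reaching 0.07. Both knockout-labelled values were below both wild-type values.

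Of the autophagy genes, Map1lc3b encodes LC3B, which is joined to the growing autophagosome membrane. Its signal was 10.28 in hypertonic and 9.60 in isotonic knockout-labelled cells, against 9.43 and 9.19 in hypertonic and isotonic wild-type cells. Both knockout-labelled arrays were above both wild-type arrays, and each hypertonic array above its isotonic one. The knockout-labelled response was 0.68 and the wild-type response 0.24, and the genotype difference in hypertonic medium was 0.85.

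A second probe set of Map1lc3b gave differences of 0.65, 0.18 and 0.86 for the same 3 comparisons. LC3 family members are similar in sequence, and whether these probe sets also read a near-identical copy was not tested. Wipi1, which binds the signalling lipid PI3P on forming autophagosomes, had a signal of 6.27 in hypertonic and 6.45 in isotonic knockout-labelled cells, against 7.23 and 6.50 in hypertonic and isotonic wild-type cells. Only the wild-type hypertonic array stood out. The wild-type response was 0.73 and the knockout-labelled response -0.18, so the genotype difference in hypertonic medium was -0.96. The lower signals of Wipi1 lie not far above the dim limit, so the sizes of these differences are less certain.

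Sqstm1 encodes p62, a cargo receptor that is itself degraded by autophagy. Its signal was 11.14 in hypertonic and 10.90 in isotonic knockout-labelled cells, against 10.96 and 10.90 in hypertonic and isotonic wild-type cells. Ulk1, the starting kinase, responded by 0.45 in knockout-labelled and 0.24 in wild-type cells, and Gabarapl1, an LC3 relative, by -0.01 and -0.06. The 25 genes that were under 1.5-fold or dim in all 4 comparisons between arrays had differences from -0.20 to 0.56 in the knockout-labelled response and from -0.46 to 0.40 in the wild-type response. Between genotypes they ran from -0.23 to 0.50 in isotonic and from -0.55 to 0.87 in hypertonic medium, the ends -0.46 and 0.87 being those of dim Ctsk.

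**Figure D3:**
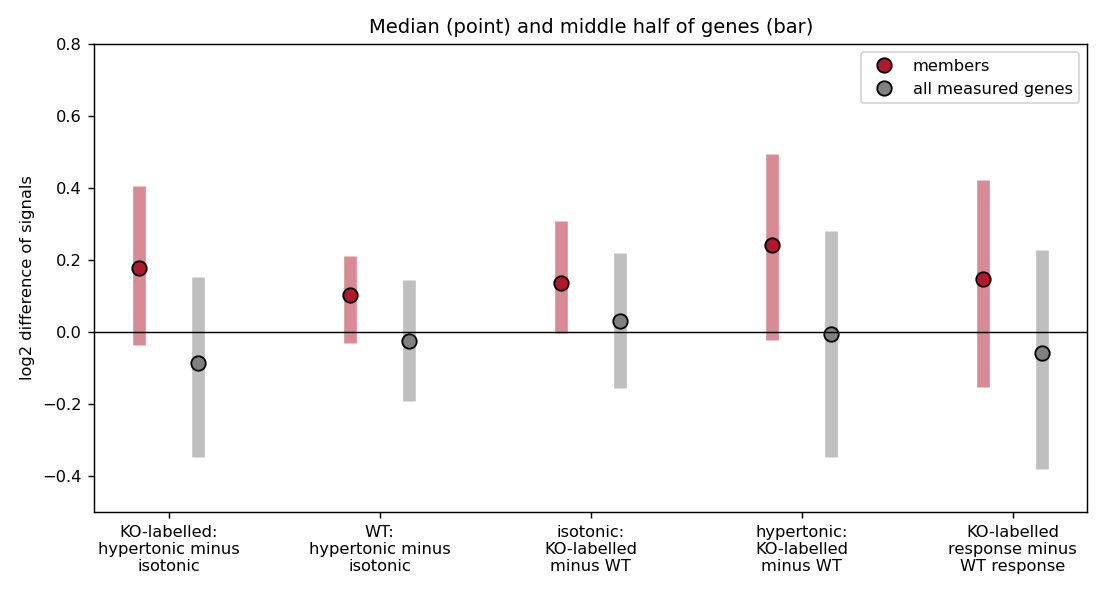
Median (point) and middle 50% (bar) of the log2 differences of the 34 measured genes (red) and of all measured genes (grey), for each of the 5 comparisons. The members' medians, from 0.10 to 0.24, lie above the all-gene medians in each comparison, and the bars overlap in each.

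Promoters were read because TFEB and its relatives bind E-box sequences, of which CACGTG is the core and TCACGTGA and TCATGTG are a longer and a variant form. Windows of 300 bases, from 250 before to 50 after the start, came from RefSeq on GRCm38.p6, for 31 of the 35 genes; a gene held a motif if any of its promoters did, on either strand. CACGTG, which also counts each TCACGTGA, was in 11 of 31 (35.5%), against 8.09% of 27025 genes and 7.15% of 32851 promoters. TCACGTGA was in 6 (19.4%), against 1.12% of genes and 0.974% of promoters: Atp6v0d1, Cln3, Ctsa, Ctsd, Gla and Mcoln1. TCATGTG, counted separately, was in 5 (16.1%), against 4.31% of genes and 3.77% of promoters: Ctsa, Gla, Grn, Scarb2 and Tpp1. Ctsa and Gla thus held both TCATGTG and TCACGTGA. As said above, such sequences are often found in promoters of lysosomal and autophagy genes, and the list was made of such genes. The higher shares therefore describe the list and say nothing of these arrays. A match is a description of the letters and shows no binding.

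The 4 promoters printed whole belong to genes with large differences (Gla, Cln3, Gpnmb) or with the most CACGTG copies, 4, of the list (Lamp1). Capitals mark every match to the 3 motifs, on either strand. They lie at chrX:134600956-134601255 (minus strand) for Gla, chr7:126583187-126583486 (minus) for Cln3, chr8:13158911-13159210 (plus) for Lamp1 and chr6:49036268-49036567 (plus) for Gpnmb. The Gpnmb window holds none of the motifs. Cln3 has a further promoter window, at chr7:126585768-126586067 (minus), which also holds none and is not printed.
Gla: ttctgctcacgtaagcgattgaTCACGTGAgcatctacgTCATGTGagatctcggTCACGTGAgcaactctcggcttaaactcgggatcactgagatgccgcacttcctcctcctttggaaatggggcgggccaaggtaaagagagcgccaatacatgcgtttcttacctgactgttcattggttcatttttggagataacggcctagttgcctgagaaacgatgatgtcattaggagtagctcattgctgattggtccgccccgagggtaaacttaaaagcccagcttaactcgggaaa
Cln3: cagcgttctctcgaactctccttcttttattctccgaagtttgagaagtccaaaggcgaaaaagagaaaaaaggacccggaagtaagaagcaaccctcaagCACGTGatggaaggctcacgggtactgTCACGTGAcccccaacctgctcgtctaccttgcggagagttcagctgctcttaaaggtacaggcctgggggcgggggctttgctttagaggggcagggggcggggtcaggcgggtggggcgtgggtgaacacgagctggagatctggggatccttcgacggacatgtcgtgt
Lamp1: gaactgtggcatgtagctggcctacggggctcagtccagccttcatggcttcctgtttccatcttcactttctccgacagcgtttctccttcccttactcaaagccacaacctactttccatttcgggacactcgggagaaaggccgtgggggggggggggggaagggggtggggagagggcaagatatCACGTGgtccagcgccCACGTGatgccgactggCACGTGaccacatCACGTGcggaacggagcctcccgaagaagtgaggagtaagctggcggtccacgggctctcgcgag
Gpnmb: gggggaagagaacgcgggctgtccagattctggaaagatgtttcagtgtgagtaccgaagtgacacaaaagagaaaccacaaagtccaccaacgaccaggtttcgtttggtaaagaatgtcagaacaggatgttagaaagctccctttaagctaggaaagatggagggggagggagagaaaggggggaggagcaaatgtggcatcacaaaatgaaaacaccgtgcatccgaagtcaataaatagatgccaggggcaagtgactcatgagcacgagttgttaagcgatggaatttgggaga

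Shorter windows show the TCACGTGA copies of 4 further genes with 20 bases either side, capitals marking TCACGTGA or CACGTG. They lie at chr2:164833740-164833804 (plus) for Ctsa, chr7:142387899-142387946 (minus) for Ctsd, chr8:3500428-3500500 (plus) for Mcoln1 and chr8:105566041-105566088 (minus) for Atp6v0d1. Ctsa holds a pair of copies close together in this window, while a further promoter window of Ctsa, at chr2:164832622-164832921 (plus), holds none.
Ctsa: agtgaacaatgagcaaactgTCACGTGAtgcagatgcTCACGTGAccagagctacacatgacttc
Ctsd: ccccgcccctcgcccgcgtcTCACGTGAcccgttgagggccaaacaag
Mcoln1: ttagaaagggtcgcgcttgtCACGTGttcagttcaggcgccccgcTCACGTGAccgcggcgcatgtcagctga
Atp6v0d1: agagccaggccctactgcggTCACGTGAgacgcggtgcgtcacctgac

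Genes with and without TCACGTGA overlapped in their differences. The 6 had a median of 0.30 in the knockout-labelled response and 0.44 between genotypes in hypertonic medium, against 0.17 and 0.21 in the 24 measured genes without it. The 24 are not free of the other motifs: Ctsl, Gaa, Glb1, Lamp1 and Naglu hold CACGTG, and Grn, Scarb2 and Tpp1 hold TCATGTG. Gla, Cln3 and Atp6v0d1, the last at -0.05 and 0.02, are among the 6. Gpnmb, with the largest differences, is among those without TCACGTGA. The part of the motifs in these differences was not tested.

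Beyond the 35, 164 of 175 other genes of the system had a one-gene probe set and were read in 7 lists by role. Together, in the genotype difference in hypertonic medium, 19 of 150 measured were at least 1.5-fold higher and 24 lower, shares of 12.7% and 16.0%, beside 8.72% and 15.1% of all genes. Their median there was -0.01, with 74 above and 76 below 0, and that of their knockout-labelled response -0.03. In the knockout-labelled response 8 of 148 were higher and 20 lower as deposited, 5.41% and 13.5%, beside 4.28% and 12.0% of all genes. With quantile normalization 10 were higher and 13 lower, beside 664 and 856 of all 10277 genes. In the wild-type response 8 of 150 were higher and 2 lower, 5.33% and 1.33%, beside 4.12% and 3.3%. In the isotonic genotype difference 5 were higher and 5 lower, 3.33% each, beside 4.92% and 3.87%.

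The V-ATPase and the remaining hydrolases lay on opposite sides. Of 15 measured V-ATPase subunit genes other than the 2 members, 5 were at least 1.5-fold higher in knockout-labelled hypertonic cells and 1 lower, with a median of 0.55, against -0.01 over all genes. The 5 were Atp6v0b (1.15), Atp6v1c1 (0.93), Atp6v1d (0.75), Atp6v1b2 (0.69) and Atp6v1a (0.59), and the lower one Atp6v0a1 (-1.09). With cyclic loess 4 were higher. Of 26 further hydrolases 2 were higher and 12 lower in that comparison, with a median of -0.54 and 21 below 0. Of all 10374 measured genes, 8.72% were that much higher, 15.1% that much lower and 5244 below 0. The wild-type response of the further hydrolases had a median of 0.31, against -0.02 over all genes. Their knockout-labelled response had a median of -0.15, against -0.09, and it ranged from -0.17 to -0.06 with scaling.

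Single genes with large values in hypertonic medium between genotypes included Tmem175 (-1.88), a lysosomal potassium channel, Siae (-1.62), a sialic acid esterase, and Acp2 (-1.39), an acid phosphatase. Naaa (-1.35), an acid amidase, and Ulk2 (-1.35), a relative of Ulk1, were lower by nearly as much. Rragc, a Rag GTPase that brings mTORC1 and TFEB to the lysosome, was higher, at 1.41. Tmem175 had a signal of 5.23 in knockout-labelled and 7.12 in wild-type hypertonic cells, and Siae 4.78 and 6.40, so both were dim in knockout-labelled cells and the sizes are poorly determined.

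Of the MiT/TFE factors and their regulators 3 of 19 were higher and 2 lower in that comparison. Tfe3 differed by -0.13, and Mitf and Tfec were dim on all arrays. Of 43 further autophagy genes 1 was higher and 4 were lower, of 23 membrane and transport genes 4 and 5, of 17 sorting and trafficking genes 3 and 0, and of 7 proteases 1 and 0. The shares of all genes were 8.72% higher and 15.1% lower, and the autophagy genes lay below both, at 2.33% and 9.30%.

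In the knockout-labelled response the largest values were all negative: Epdr1 (-1.65), a lysosomal lipid-binding protein, Bnip3 (-1.40), a mitophagy receptor also induced by low oxygen, Tmem175 (-1.30), Galns (-1.17), Ulk2 (-1.03) and Stx17 (-0.96). In wild-type cells the largest were Calcoco1 (0.93), Bnip3 (-0.85), Ctsf (0.74), Sort1 (0.65), Uvrag (0.64) and Arsa (0.63). Bnip3 was thus lower in hypertonic medium in both genotypes. In isotonic medium between genotypes they were Acp5 (1.01), Bnip3 (1.0), Gm2a (0.92), Siae (-0.84), Ostm1 (0.83) and Rilp (-0.65). Acp5, an acid phosphatase that also serves as an osteoclast marker, was dim on both wild-type arrays and not on the knockout-labelled ones.

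**Figure D4:**
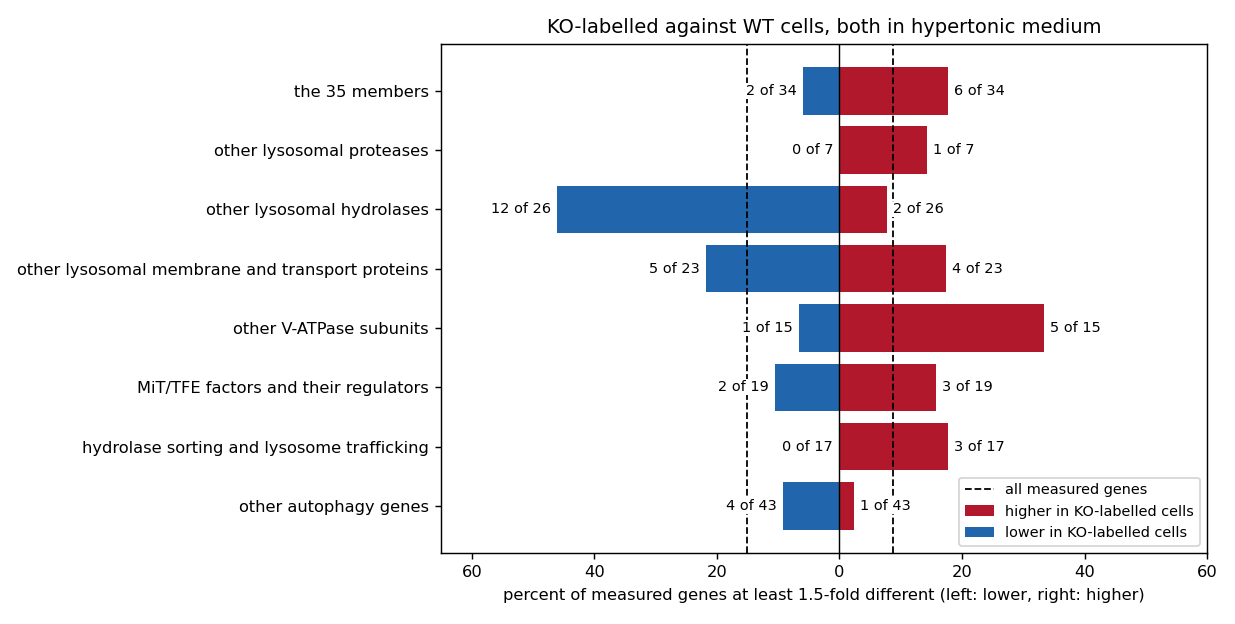
Share of each list's measured genes at least 1.5-fold higher (right) or lower (left) in knockout-labelled than in wild-type cells in hypertonic medium, in percent, with counts as labels; dashed lines give 8.72% and 15.1%, the shares of all measured genes. Further hydrolases have 12 of 26 lower and V-ATPase subunits 5 of 15 higher.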

How the data were processed

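The authors deposited 1 value for each probe set on each array, read here as log2 signal; that scale was inferred from the values, which run from 1.57 to 13.94. MAS5, without a version, is named per the submitters' processing notes, and the sources used here state neither a unit nor a normalization between arrays. Each array held 4 pooled samples, per the series' design text. Of 35557 probe sets, 21789 had 1 gene symbol in the platform annotation, and those with several or none were left out. The genes and lists were chosen with earlier results of these data known. Values were used as deposited. The dim limit was each array's median over one-gene probe sets, and a gene counted as measured if at least 1 of the arrays compared exceeded it. Genes were counted at 1.5-fold, 0.585 on the log2 scale, with 2-fold as an alternative. With 1 array per group, no p-value, no SD between replicates and no replicate check could be had. Signals on all 4 arrays are given for genes called in any comparison between arrays, for the 4 with the largest absolute difference in each comparison, and for some others chosen after their values were seen. Of other pathway genes, up to 6 per comparison with the largest absolute difference among those called were named, and V-ATPase subunits after their values were seen. The counting step was tested on simulated data. Alternatives were quantile and cyclic loess normalization, median centring, no dim limit, the 75th percentile as dim limit, averaging a gene's probe sets, and 2-fold. Normalization used limma 3.58.1 in R 4.3.3, and the rest Python 3.11.15 with numpy 2.4.6, pandas 2.3.3 and matplotlib 3.10.9. Promoter windows came from RefSeq on GRCm38.p6.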

Additional observations from a re-analysis of the deposited data

Results flagged for a closer look

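In 4 genes the response to hypertonic medium had opposite signs in knockout-labelled and wild-type cells and the responses differed by at least 1.5-fold. With 1 array per group the difference was not tested. The knockout-labelled minus the wild-type response was 1.54 for Gpnmb, which was higher in hypertonic medium in knockout-labelled cells and lower in wild-type cells. It was 0.77 for Gla, likewise higher in knockout-labelled and lower in wild-type cells. It was -0.99 for Naglu and -0.91 for Wipi1, which were lower in hypertonic medium in knockout-labelled cells and higher in wild-type cells. At any size, 7 of 34 genes (20.6%) were higher in knockout-labelled and lower in wild-type cells, against 21.0% of all genes. The reverse held for 7 of 34 (20.6%), against 27.3%. Opposite signs were thus not more frequent in these genes than in all genes. Whatever the signs, the responses of 7.76% and 15.4% of all genes differed by at least 1.5-fold, higher and lower.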

How the results depend on the processing

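No paired analysis was possible because each group has 1 array. The direction of the member median was the same in all 5 comparisons under every alternative tried. Its range was 0.18 to 0.27 in the knockout-labelled response, 0.09 to 0.13 in the wild-type response, 0.08 to 0.18 and 0.23 to 0.36 between genotypes in isotonic and hypertonic medium, and 0.15 to 0.20 for the difference of responses; the hypertonic value of 0.36 came with the dim limit at the 75th percentile. None of the medians over all members changed sign, but 9 of the medians of role groups and pathway lists did between the 4 scalings, all lying between -0.05 and 0.09. They include Tfeb in the knockout-labelled response (-0.05 to 0.07) and the MiT/TFE factors and regulators in all 4 comparisons between arrays. Counts of genes moved more. In the knockout-labelled response 5 were higher with cyclic loess and 5 with centring, against 3 as deposited, and with 2-fold 1 was higher and 0 lower. In the wild-type response 2 were higher with quantile, cyclic loess or centring and 0 with the stricter dim limit or 2-fold, against 1, and 0 were lower with those normalizations, centring or 2-fold, against 1. Between genotypes in isotonic medium 1 was higher at 2-fold, against 2. In hypertonic medium 3 were higher at 2-fold, against 6; 0 were lower with the stricter dim limit and 1 at 2-fold, against 2. For the difference of responses 1 was higher at 2-fold, against 3; 1 was lower with the stricter dim limit and 0 at 2-fold, against 3. The fewer calls at 2-fold follow from the limit itself; for the other settings the cause was not tested. Of the other pathway genes, those lower in the knockout-labelled response were 13 with quantile normalization, 9 with the stricter dim limit and 5 at 2-fold, against 20, and those higher 0 at 2-fold, against 8. In the wild-type response 4 and 0 were higher with the stricter dim limit and at 2-fold, against 8, and 1 and 0 lower with cyclic loess and at 2-fold, against 2. Between genotypes in isotonic medium 2 were higher at 2-fold, against 5, and 3 and 0 lower with the stricter dim limit and at 2-fold, against 5. In hypertonic medium 2 were higher at 2-fold, against 19, and 12 and 11 lower with the stricter dim limit and at 2-fold, against 24. Of 184 values of single genes under alternatives, 183 moved little; Bnip3 in the wild-type response was -0.64 with the mean of its probe sets, against -0.85. Signal over background limits the low genes: with the stricter dim limit 29 of the members stayed measured between genotypes in hypertonic medium, against 34.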
